A study of Mus musculus with 6 samples.

Results

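Trp53, 7 target genes of the p53 pathway and 2 cell cycle inhibitors of the INK4 family were followed in cultured mouse hepatic stellate cells, in libraries labelled Nbr1 knock-out and libraries labelled wild type. The 10 genes were chosen by name: Trp53, Cdkn1a, Mdm2, Ccng1, Bax, Btg2, Zmat3, Phlda3, Cdkn2a and Cdkn2b. All 10 have a row among the 13341 genes of the deposited table, and all 10 passed the filter on low values that 10540 genes passed. Messenger RNA was read from its 3' end in 6 libraries, 3 from Nbr1 knock-out and 3 from wild-type cells. Stellate cells store vitamin A around the liver sinusoids and become collagen-producing myofibroblasts when activated. NBR1 is an autophagy cargo receptor. Both groups grew for 4 days in DMEM with 10% fetal bovine serum, glutamine and antibiotics, with no treatment. The labels do not say how the gene was deleted, in which cells, at what age, or whether the cells were primary or a line. The series' design text calls the 3 libraries of a group biological replicates, without saying whether these came from separate animals or cultures, so each p measures the spread between these libraries.

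The p53 protein is a transcription factor that is held at a low level by the ubiquitin ligase MDM2 in unstressed cells and accumulates when DNA is damaged. It switches on genes that stop the cell cycle, of which Cdkn1a (p21) is the best known, genes of cell death such as Bax, and its own inhibitor Mdm2. A separate brake is encoded at the Cdkn2a and Cdkn2b genes, whose INK4 products block the cyclin D kinases, while the ARF product of Cdkn2a restrains MDM2 and so links the locus to p53. In mouse liver, activated stellate cells can enter p53-dependent senescence, which is known to limit scarring.

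Between the labelled groups, 1 of the 10 genes passed the test and 9 did not, beside 6.92% of all tested genes that passed. Btg2, an antiproliferative gene that p53 activates, was about 2-fold lower in the knock-out label, and its call was lost in 8 alternatives of the processing. Cdkn1a was higher in every knock-out library than in every wild-type library but missed the threshold. Mdm2 and Ccng1 were nearly level. Trp53, Zmat3, Phlda3, Cdkn2a and Cdkn2b varied more between 2 sets of libraries, drawn from these same data, than between the labels. The values of the sets lay apart for these 5 of the 10, beside 40.0% of all tested genes.

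The start regions of 4 of these genes are shown because each holds a p53 element or a match to TGACGTCA. No p53 element was found in the window of Btg2, which passed, or in those of Trp53, Mdm2, Bax, Phlda3, Cdkn2a and Cdkn2b, which did not. Whether start sequences bear on which gene passed was not tested. The windows of Cdkn1a and Ccng1, which did not pass, hold a p53 element. Those of Btg2 and Cdkn2b hold TGACGTCA, the octamer that cAMP response factors bind. The windows are RefSeq sequences of build GRCm38.p6, each with 250 bases before and 50 after a transcription start. Lower case is plain sequence, and capitals mark matches to the p53 half-site consensus, to a p53 element, or to TGACGTCA.
Cdkn1a, the upstream of 2 starts, chr17:29090729-29091028, plus strand: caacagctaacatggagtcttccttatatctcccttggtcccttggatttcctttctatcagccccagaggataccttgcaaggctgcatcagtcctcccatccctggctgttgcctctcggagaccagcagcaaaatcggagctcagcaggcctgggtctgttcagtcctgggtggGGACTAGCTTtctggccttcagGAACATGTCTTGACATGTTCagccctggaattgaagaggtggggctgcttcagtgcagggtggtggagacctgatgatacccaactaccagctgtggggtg
Ccng1, chr11:40755237-40755536, minus strand: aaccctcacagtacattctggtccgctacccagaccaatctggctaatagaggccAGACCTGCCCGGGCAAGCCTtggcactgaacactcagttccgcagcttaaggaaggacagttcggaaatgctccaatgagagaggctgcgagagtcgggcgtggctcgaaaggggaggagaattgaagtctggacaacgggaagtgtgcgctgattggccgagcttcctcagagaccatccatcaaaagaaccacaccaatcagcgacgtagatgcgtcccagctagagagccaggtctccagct
Btg2, chr1:134079106-134079405, minus strand: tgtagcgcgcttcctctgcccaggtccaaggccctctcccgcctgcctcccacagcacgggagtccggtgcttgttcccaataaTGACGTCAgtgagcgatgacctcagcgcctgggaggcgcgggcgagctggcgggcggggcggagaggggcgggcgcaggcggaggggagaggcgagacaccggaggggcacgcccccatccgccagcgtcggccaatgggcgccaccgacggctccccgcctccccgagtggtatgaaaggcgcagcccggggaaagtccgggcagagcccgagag
Cdkn2b, chr4:89310983-89311282, minus strand: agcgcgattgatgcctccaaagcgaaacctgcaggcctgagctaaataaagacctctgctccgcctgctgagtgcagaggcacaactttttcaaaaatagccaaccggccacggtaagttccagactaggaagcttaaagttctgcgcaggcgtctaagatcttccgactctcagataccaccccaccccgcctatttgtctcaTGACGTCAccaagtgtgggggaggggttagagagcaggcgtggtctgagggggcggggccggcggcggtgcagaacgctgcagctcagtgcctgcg

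Windows were found for 9 of the 10 genes, 11 in all, because Cdkn1a and Cdkn2a have 2 starts each; Zmat3 had none. A p53 element was taken as 2 adjoining half-sites with at most 1 mismatch over both, and one of the 2 half-sites in the Cdkn1a window lies inside its element. Relative to the start the element spans positions -51 to -32 in the upstream Cdkn1a window and -195 to -176 in Ccng1. The window at the downstream Cdkn1a start held 0 half-sites and 0 elements. The octamer begins at -166 in Btg2 and -46 in Cdkn2b. Both strands were searched, and the octamer overlapped no p53 match. The element was found in 2 of the 11 windows and in 29 of all 32851 windows of this length (0.0883%). A half-site was found in 5 of the 11 (Trp53, Cdkn1a, Mdm2, Ccng1 and Bax) and in 8.36% of all, and the octamer in 2 of the 11 and 1.79% of all. Other motifs were searched too and are left in lower case. The CCAAT box was found in 5 of the 11 windows and in 37.4% of all, the GC box GGGCGG in 8 and in 35.7%, and the TATA box TATAAA in 1 and in 13.6%. The octamer was noticed in these windows before its share was counted, and most of the genes are known p53 targets, so the shares only describe the windows. p53 is known to act on Mdm2 from an internal promoter, which its window does not cover.

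The libraries did not fall apart by label alone. By their deviations from the group means over all tested genes, knock-out libraries 1 and 3 went with wild-type library 1, and knock-out library 2 with wild-type libraries 2 and 3. These library sets came from the same data as the results, so no test between them is given. Total recovered reads ranged from 1508518 to 2383879 per library. They were 2143285 and 1648800 in knock-out libraries 1 and 3 and 1508518 in wild-type library 1. Each of the others had more: 2276529 in knock-out library 2, and 2383879 and 2177342 in wild-type libraries 2 and 3. The library sets thus also differed in depth, and the part of depth in the results was not tested. The targeted gene Nbr1 had 203.7, 188.2 and 175.6 normalized counts in the knock-out label and 204.1, 278.0 and 288.7 in the wild-type label (log2 difference -0.43, SE 0.18, limma adjusted p = 0.22), and 3' reads do not check a deletion elsewhere in the gene. Sqstm1, which encodes the related receptor p62 and is widely expressed, had 817.4, 644.6 and 859.1 in the knock-out label and only 24.0, 10.9 and 12.7 in the wild-type label, so each direction below rests on the labels. Of 12 stellate cell markers, 8 had a value, with summed levels of 13010 to 16620 normalized counts in knock-out libraries and 5543 to 7253 in wild-type libraries, and 6 of the 7 tested passed as higher in the knock-out label (limma). Most of each stellate sum came from Col1a1, Col1a2 and Vim, with means of 5539, 4029 and 3347 in the knock-out label and 2169, 1531 and 2567 in the wild-type label. Gfap averaged only 2.06 in the knock-out label and 2.03 in the wild-type label and was not tested. Acta2, Col1a1 and Pdgfrb were present, and the markers Des, Lrat, Reln and Ngfr had no value in the table used here. Mesothelial markers (5 of 6, without Krt18) summed to 967.7 to 1081 in knock-out libraries and 1327 to 1542 in wild-type libraries. Most of each sum came from Gpm6a, with means of 813.0 in the knock-out label and 1051 in the wild-type label. Upk3b averaged 68.0 in the knock-out label and 181.5 in the wild-type label (limma adjusted p = 0.0112). Of the 5, Msln alone was higher in the knock-out label, at 22.8 against 14.2 (limma adjusted p = 0.268). Hepatocyte (4 of 7), macrophage (2 of 6) and endothelial (1 of 6) markers summed to at most 48.12, 14.68 and 8.31, and Hnf4a, Adgre1, Ptprc, Pecam1 and Cdh5 had no value. Cholangiocyte and epithelial markers (4 of 5, without Epcam) summed to 129.8 to 170.9 in knock-out libraries and 128.5 to 152.1 in wild-type libraries, but these sums cover opposite differences. Cdh1, the E-cadherin gene, had 95.05, 59.3 and 96.1 normalized counts in knock-out libraries and 12.01, 3.36 and 2.72 in wild-type libraries (limma adjusted p = 0.00802), and Spp1 averaged 29.9 in the knock-out label and 74.6 in the wild-type label (limma adjusted p = 0.0101). In bulk RNA, fewer cells of a type and less RNA per cell cannot be told apart, and the part of the library sets or of these markers in the results was not tested.

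A normalized count is the authors' read count divided by a factor of its library. Because the kit reads the 3' end, a gene's count does not grow with transcript length, and levels can be set side by side with the limit that genes differ in how well their ends are primed and mapped. Cdkn2a was by far the most abundant of the 10, with a mean of 1077 normalized counts over the 6 libraries, higher than 98.4% of the genes in the table. Mdm2 (271.5) and Ccng1 (240.1) came next, and the first exceeded the second in 5 of 6 libraries. Btg2 followed at 147.9, below Ccng1 in all 6 libraries. Cdkn1a (94.3), Zmat3 (84.0), Trp53 (68.1), Cdkn2b (55.8), Phlda3 (43.9) and Bax (33.8) came below. In that order no gene from Btg2 down exceeded the next in more than 4 of 6 libraries, so the order of neighbours was not the same in every library. For some of them it went with the label: Cdkn1a exceeded both Btg2 and Zmat3 in all 3 knock-out libraries and was below both in all 3 wild-type libraries.

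**Figure D1:**
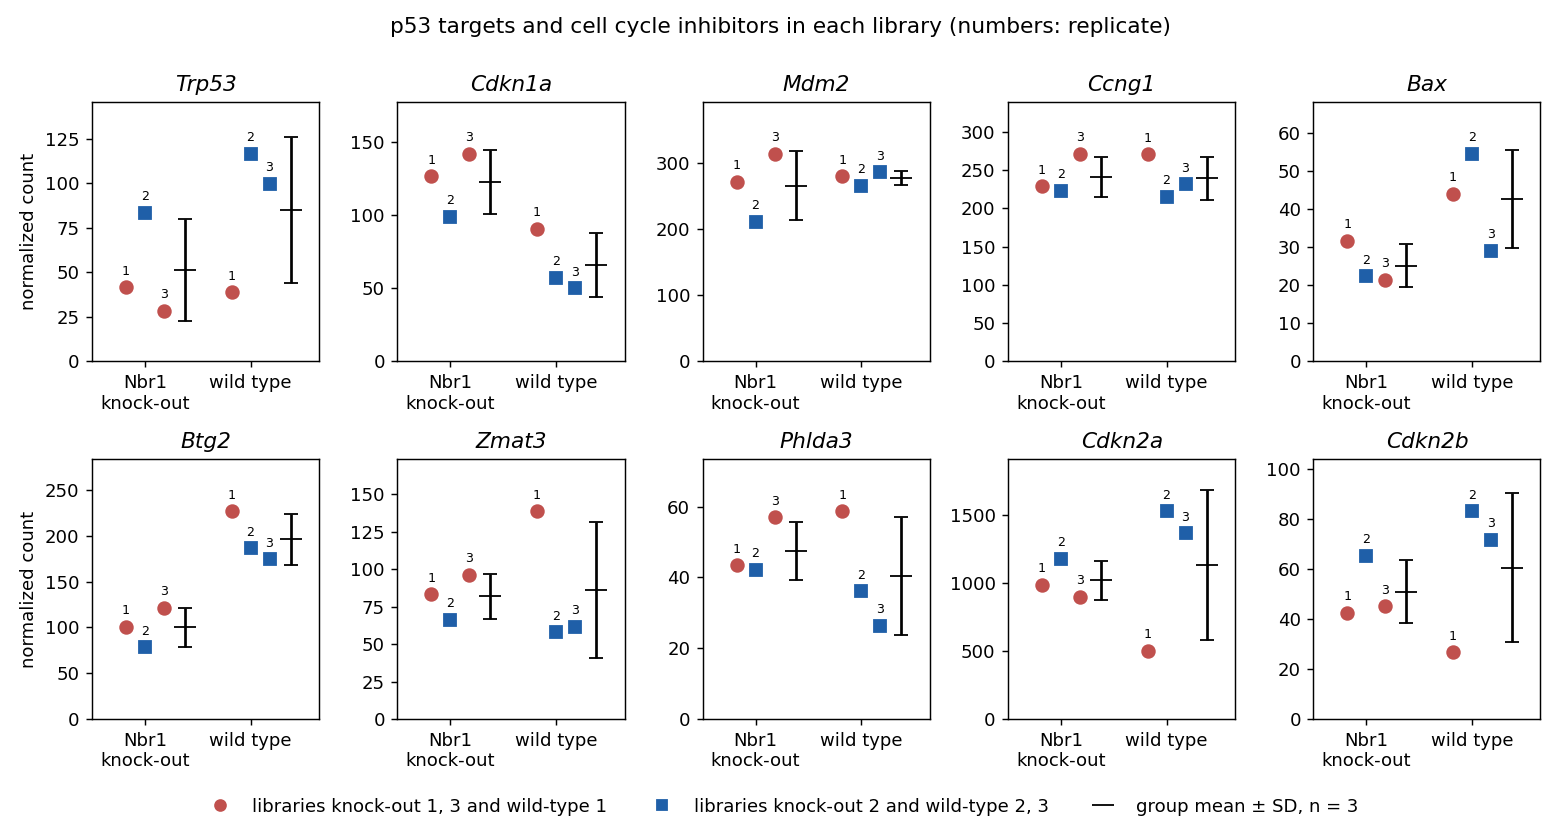
Normalized counts of the 10 genes (vertical axes, from 0) in the Nbr1 knock-out libraries, on the left of each panel, and the wild-type libraries, on the right, with the replicate number above each point and the group mean ± SD beside it. Circles and squares mark the library sets: for Btg2 the groups stand apart whatever the set, while for Trp53, Cdkn2a and Cdkn2b every square lies above every circle.

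The difference between the labels was tested with limma across all 10540 tested genes, with Benjamini-Hochberg adjustment, and every adjusted p below comes from that fit unless another is named. Of all tested genes, 6.92% passed, with 4.67% higher and 2.25% lower in knock-out libraries. Among the 10 genes 0 were higher and 1 was lower. The values of one label lay apart from those of the other for 30.1% of tested genes and for 2 of the 10, Cdkn1a and Btg2, which were also the 2 with an unadjusted p under 0.05, beside 22.6% of tested genes. The median log2 difference of the 10 was -0.04, beside -0.01 over all tested genes.

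Trp53, on chromosome 11, encodes p53 itself. Its RNA stood at 41.6, 83.4 and 28.5 normalized counts in knock-out libraries 1 to 3 and at 38.7, 116.7 and 99.9 in wild-type libraries 1 to 3. Wild-type library 1 lay with knock-out libraries 1 and 3, and the labels overlapped. The log2 difference was -0.72 (SE 0.53, adjusted p = 0.495). Within knock-out libraries 1 and 3 and wild-type library 1 it was -0.16, and within the other 3 libraries -0.37, so both were smaller than the overall value. Without wild-type library 1 it was -1.20, which also did not pass (adjusted p = 0.0732). Trp53 has an annotated pseudogene, Trp53-ps, and the sources used here do not give how reads that match both were counted.

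Mdm2, on chromosome 10, encodes the ligase that marks p53 for degradation and is itself a p53 target. It stood at 271.6, 211.4 and 314.4 normalized counts in knock-out libraries and at 280.2, 265.4 and 286.0 in wild-type libraries. The knock-out values spanned the wild-type ones (log2 difference -0.08, SE 0.18, adjusted p = 0.846), and the sign turned to 0.08 without knock-out library 2.

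Cdkn1a, on chromosome 17, encodes p21, the inhibitor of cyclin-dependent kinases through which p53 stops the cell cycle. It stood at 126.7, 98.8 and 142.4 normalized counts in knock-out libraries and at 90.7, 57.1 and 49.9 in wild-type libraries. Every knock-out library lay above every wild-type library, the nearest pair being knock-out library 2 and wild-type library 1. Means were 122.7 ± 22.1 in the knock-out label and 65.9 ± 21.8 in the wild-type label (SD, n = 3 each), a ratio of 1.86. The log2 difference of 0.92 (SE 0.27) did not pass (adjusted p = 0.103). It was 0.56 within knock-out libraries 1 and 3 and wild-type library 1, and 0.88 within the other 3 libraries, so it was positive in both sets. Cdkn1a passed without wild-type library 1 (log2 difference 1.17, adjusted p = 0.00973), where 21.1% of all tested genes passed. Adding the library sets to the fit had it pass as well (0.72, SE 0.16, adjusted p = 0.0106), where 26.5% did. The sets were drawn from deviations in these same data, so the p of that fit is a description only. Cdkn1a did not pass when any 1 other library was left out (adjusted p from 0.135 to 0.334). Nor did it pass with edgeR (adjusted p = 0.104) or with DESeq2 (adjusted p = 0.0766). In GENCODE M21 the provisional gene model AC167363.2 overlaps Cdkn1a on the other strand, and the sources used here do not give whether counting used strand, so their reads may not be told apart.

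Btg2, on chromosome 1, encodes a protein of the BTG and TOB family that binds messenger RNA deadenylases, slows proliferation and is induced by p53 and by growth factors. It stood at 100.5, 78.2 and 121.0 normalized counts in knock-out libraries and at 226.8, 186.4 and 174.3 in wild-type libraries. The highest knock-out library lay well below the lowest wild-type library. The knock-out label averaged 99.9 ± 21.4 from 304 reads and the wild-type label 195.9 ± 27.5 from 584 reads (SD, n = 3 each), a ratio of 0.51. Btg2 fell by 0.98 on the log2 scale (SE 0.21, adjusted p = 0.0411). It also passed with edgeR (adjusted p = 0.0424) and with DESeq2 (adjusted p = 0.00612) on the recovered reads, beside 7.27% and 9.02% of all genes with a value in those tests. The log2 difference was -1.03 within knock-out libraries 1 and 3 and wild-type library 1 and -1.19 within the other 3 libraries. Its call was lost with quantile normalization (adjusted p = 0.0512), with limma without a variance trend (adjusted p = 0.053) and with limma with a block for the replicate numbers (adjusted p = 0.0718). It was also lost without any 1 of knock-out libraries 1, 2 and 3 and wild-type libraries 2 and 3 (adjusted p from 0.0776 to 0.174). The log2 difference stayed between -1.13 and -0.81.

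Cdkn1a, which did not pass, and Btg2, both counted among p53 targets, had differences of opposite sign in the same libraries. The cause of either difference was not tested.

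Ccng1, on chromosome 11, encodes cyclin G1, a p53 target that acts back on MDM2. It stood at 229.0, 222.6 and 271.7 normalized counts in knock-out libraries and at 270.8, 215.0 and 231.5 in wild-type libraries, and had the narrowest spread of the 10. It averaged 241.1 ± 26.7 in the knock-out label and 239.1 ± 28.7 in the wild-type label (SD, n = 3 each; log2 difference 0.01, SE 0.16, adjusted p = 0.976). Its values overlapped between the labels, and its sign turned with a term for the library sets and without any 1 of knock-out library 3 and wild-type libraries 2 and 3.

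Bax, on chromosome 7, encodes the BCL2 family protein that opens the outer mitochondrial membrane in apoptosis. It stood at 31.7, 22.3 and 21.4 normalized counts in knock-out libraries and at 44.0, 54.6 and 29.1 in wild-type libraries, from 79 reads in the knock-out label and 130 in the wild-type label. Knock-out library 1 lay just above wild-type library 3, and the other values were apart. The log2 difference of -0.71 (SE 0.31) did not pass (adjusted p = 0.229), with -0.74 and -0.81 within the library sets. In GENCODE M21 the gene model Gm45808 overlaps Bax on the same strand, so its reads could be split or left out in counting.

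Zmat3, on chromosome 3, encodes a zinc finger protein that binds AU-rich RNA and is induced by p53. It stood at 83.3, 66.2 and 96.1 normalized counts in knock-out libraries and at 138.8, 57.9 and 61.7 in wild-type libraries. Wild-type library 1 was the highest of all and the other wild-type libraries the lowest of all (log2 difference 0.03, SE 0.36, adjusted p = 0.976). Phlda3, on chromosome 1, encodes an inhibitor of AKT signalling that p53 induces. It stood at 43.5, 42.1 and 57.0 in knock-out libraries and at 58.7, 36.1 and 26.3 in wild-type libraries. Wild-type library 1 was again the highest, and the labels overlapped (log2 difference 0.29, SE 0.32, adjusted p = 0.668). For Zmat3 and Phlda3 the log2 difference was -0.63 and -0.23 within knock-out libraries 1 and 3 and wild-type library 1, and 0.14 and 0.44 within the other 3 libraries.

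**Figure D2:**
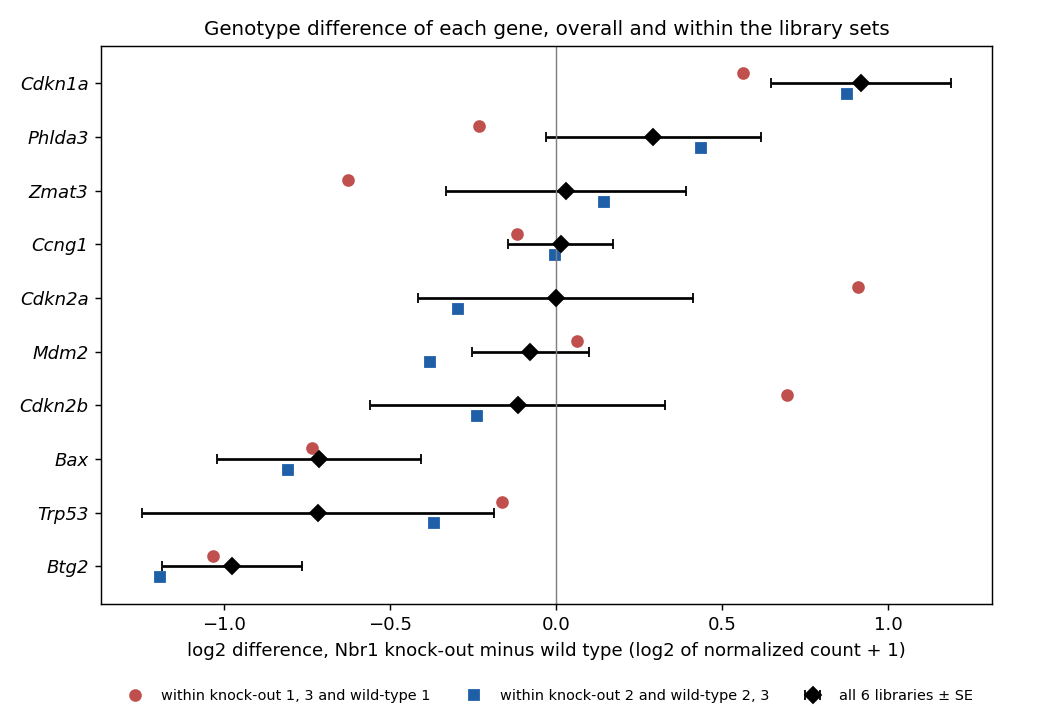
Log2 difference between Nbr1 knock-out and wild-type libraries for each gene (horizontal axis, on log2 of normalized count + 1). Diamonds with bars give the fit over all 6 libraries ± SE, circles the difference within knock-out libraries 1 and 3 and wild-type library 1, and squares that within the other 3 libraries. For Btg2, Bax, Trp53 and Cdkn1a all 3 values have 1 sign, while for Zmat3, Phlda3, Cdkn2a, Mdm2 and Cdkn2b the library sets have opposite signs.

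Cdkn2a and Cdkn2b lie side by side on chromosome 4. Cdkn2a encodes p16INK4a and, from an upstream start and another reading frame, p19ARF. Its transcripts share their last exons, so 3' reads cannot tell INK4a from ARF. Cdkn2a stood at 986.7, 1178 and 898.3 normalized counts in knock-out libraries and at 501.6, 1529 and 1367 in wild-type libraries. The wild-type libraries lay on both sides of all knock-out libraries (log2 difference -0.002, SE 0.41, adjusted p = 0.998), and this sign flipped with TMM factors (0.003) and with quantile normalization (0.034). The result turned on wild-type library 1: without it Cdkn2a was lower in the knock-out label and passed (log2 difference -0.51, SE 0.14, adjusted p = 0.0396), as did 21.1% of all tested genes. Within knock-out libraries 1 and 3 and wild-type library 1 the log2 difference was 0.91, and within the other 3 libraries -0.30.

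Cdkn2b encodes p15INK4b, an inhibitor of CDK4 and CDK6 that TGF-beta induces in many cells. It stood at 42.5, 65.3 and 45.1 normalized counts in knock-out libraries and at 26.7, 83.1 and 71.7 in wild-type libraries, the same order of the libraries as Cdkn2a except for knock-out libraries 1 and 3. The log2 difference was -0.12 (SE 0.44, adjusted p = 0.916), with 0.69 and -0.24 within the library sets.

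The neighbours kept close to 1 ratio in all 6 libraries. There were 23.2, 18 and 19.9 Cdkn2a reads per Cdkn2b read in knock-out libraries and 18.8, 18.4 and 19.1 in wild-type libraries. The highest ratio was 1.29 times the lowest, whereas Cdkn2a itself differed 3.05-fold and Cdkn2b 3.12-fold between the highest and the lowest library. The exact 95% intervals of the ratio, which cover counting error only, all overlapped and were widest in wild-type library 1 (12 to 31.1), where Cdkn2b had 20 reads. The mean ratio was 20.4 ± 2.61 in the knock-out label and 18.8 ± 0.337 in the wild-type label (SD, n = 3 each), and the values overlapped. Following Cdkn2b closely was not particular to its neighbour: Cdkn2a came at place 17 of 6793 genes by likeness of pattern, as measured below.

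**Figure D3:**
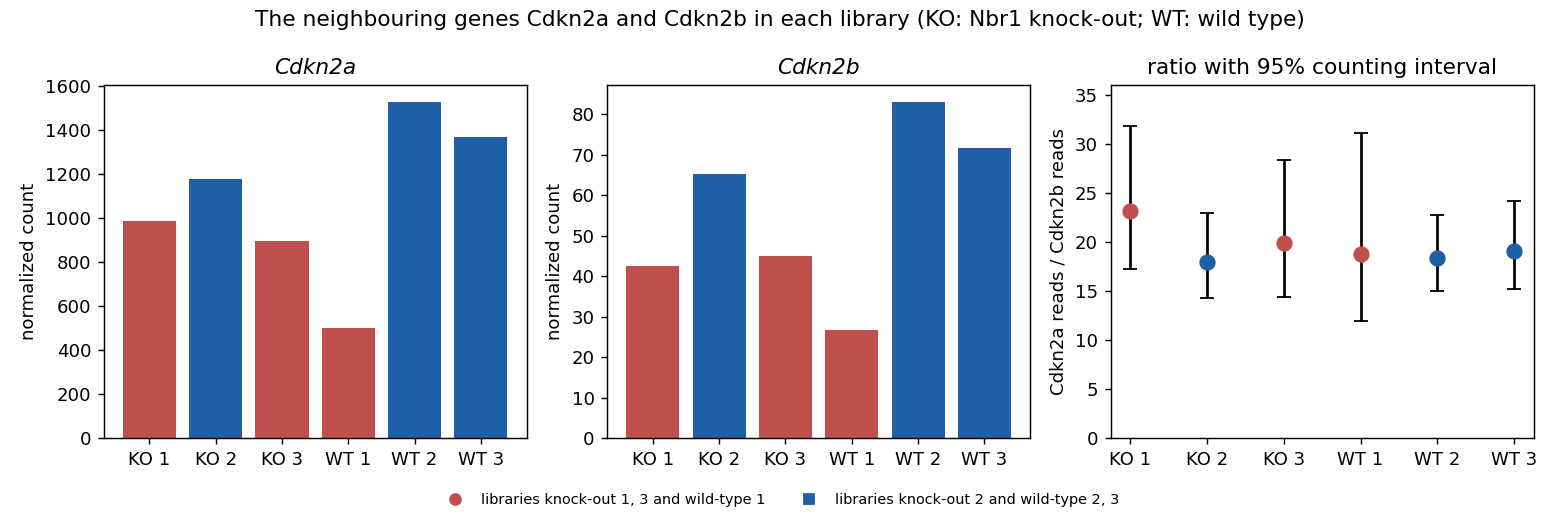
Normalized counts of Cdkn2a and of Cdkn2b in each library (left and middle, bars from 0) and the ratio of their reads with its exact 95% counting interval (right), Nbr1 knock-out libraries left of wild-type libraries. Bars differ about 3-fold between libraries, while the ratio stays between 18 and 23.2.

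The library sets divided several of the genes. For 5 of the 10 the values of knock-out libraries 1 and 3 and wild-type library 1 lay apart from those of the other 3 libraries, beside 40.0% of all tested genes. Trp53, Cdkn2a and Cdkn2b were lower in the first set and Zmat3 and Phlda3 higher. Mean Trp53 was 36.3 normalized counts in the first set and 99.99 in the other, and mean Zmat3 was 106 and 62. Since the sets were drawn from these data, the counts are a description.

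For each gene, the genes with the most similar pattern were taken as those with the smallest root mean square difference of centred log2 values over the 6 libraries, among 6793 genes with a mean of at least 50 (6794 for Bax and Phlda3). Nearest to Btg2, which varied by 0.53 around its own mean, were Nop2 (0.08), Emp3 (0.11) and Slc25a13 (0.14). Nearest to Cdkn1a were Ephb3 (0.06), Itgb3bp (0.06) and Ifitm3 (0.07). For Trp53 they were Gfm1 (0.08), Prxl2c (0.11) and Clpx (0.13), for Cdkn2a Chmp5 (0.06), Msantd4 (0.07) and Ndufab1 (0.08), and for Cdkn2b Samd4b (0.07), Flcn (0.08) and Kpna6 (0.09). Cdkn2a came at place 17 from Cdkn2b, at 0.12. For Mdm2 they were Aven, Cycs and Chordc1 (0.05 to 0.07), for Zmat3 Bet1l, Psmd13 and Timm17b (all 0.05), and for Phlda3 Gde1, Rpp25l and Bcat1 (0.07 to 0.08). Bax had the least similar neighbours, with Pla2g12a nearest at 0.15, then Ddx47 and Chchd4, and Ccng1 the most similar, with Foxm1 nearest at 0.04, then Ing2 and Mphosph6, where the gene itself varied by only 0.13 around its mean.

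Other p53 target genes did not pass as single genes. Of 33 listed, 28 were tested, and 0 passed in either direction with limma or edgeR, while 1 (Psrc1) passed with DESeq2 and 6 had an unadjusted p under 0.05, 3 higher and 3 lower, a share near the 22.6% of all tested genes. The background of 22.6% applies to the unadjusted counts of the lists that follow as well, and that of 6.92% of all tested genes to their limma calls. The median log2 difference of the other targets was -0.07. Sulf2, which encodes a heparan sulfatase, had 32.5 ± 3.5 normalized counts in the knock-out label and 16.2 ± 3.7 in the wild-type label (SD, n = 3 each; log2 difference 0.98, SE 0.26, adjusted p = 0.081). Fas, the death receptor gene, had 36.1 ± 5.6 in the knock-out label and 15.2 ± 6.2 in the wild-type label (log2 difference 1.28, SE 0.37, adjusted p = 0.0987). Both had groups that did not overlap. Without wild-type library 1, 5 of the 28 passed: Fas and Tap1 higher, and Psrc1, Tnfrsf10b and Trp53inp1 lower in the knock-out label, a share no higher than the 21.1% of all tested genes that passed there. Apart from Fas these were named after their values were seen.

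Regulators of the p53 protein, among them Mdm4, Atm and the ribosomal proteins that bind MDM2, were all tested, 20 in all, and 0 passed with limma, edgeR or DESeq2 (1 had an unadjusted p under 0.05; median log2 difference 0.12). The ubiquitin ligase gene Rchy1 had 182.9 ± 19.7 normalized counts in the knock-out label and 123.0 ± 19.9 in the wild-type label (log2 difference 0.58, adjusted p = 0.123), and the acetyltransferase gene Crebbp 542.8 ± 67.8 in the knock-out label and 429.0 ± 66.5 in the wild-type label (0.34, adjusted p = 0.289).

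Among 5 other inhibitors of cyclin-dependent kinases, Cdkn1c rose and 0 fell (median log2 difference 0.23). Cdkn1c encodes p57, a relative of p21 that is expressed from the maternal allele. It stood at 32.6, 24.1 and 26.1 normalized counts in knock-out libraries and at 9.3, 9.2 and 7.3 in wild-type libraries. The groups lay far apart, but the wild-type label held only 26 reads, against 86 in the knock-out label. Its log2 difference was 1.57 (SE 0.27, adjusted p = 0.0176), with 1.55 and 1.45 within the library sets. The call was lost without any 1 of knock-out libraries 1, 2 and 3 and wild-type libraries 2 and 3 (adjusted p from 0.0588 to 0.112).

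Cyclins, kinases, RB family and E2F genes of G1 gave 0 calls among 17 with limma and edgeR, 1 with DESeq2 and 2 with an unadjusted p under 0.05 (median log2 difference -0.13). Cdk6, the cyclin D kinase that INK4 proteins block, had 277.9, 232.1 and 267.0 normalized counts in knock-out libraries and 442.9, 341.0 and 443.1 in wild-type libraries. The groups did not overlap (log2 difference -0.65, SE 0.16, adjusted p = 0.0644), and it was the gene that DESeq2 called (adjusted p = 0.0287). E2f3, a transcription factor gene of S-phase entry, had 53.3 ± 11 and 93.3 ± 16.1 in the knock-out and wild-type labels (log2 difference -0.80, adjusted p = 0.1).

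Of 10 tested BCL2 family genes beside Bax, Bok fell and 0 rose (median log2 difference -0.18). Bok, which encodes a Bax-like effector, stood at 60.6, 58.4 and 57.0 normalized counts in knock-out libraries and at 162.8, 119.3 and 98.1 in wild-type libraries. Knock-out values were nearly equal to each other and below all wild-type values (log2 difference -1.07, SE 0.22, adjusted p = 0.0357). Leaving out any 1 library except wild-type library 1 ended the call (adjusted p from 0.0503 to 0.153). Of the relatives of Btg2, 3 were tested and 0 passed with limma, edgeR or DESeq2, nor at an unadjusted p under 0.05 (0 of 3). Btg1 had 68.7 ± 9.2 and 62.2 ± 23.8 normalized counts (adjusted p = 0.767) and Tob1 60.6 ± 36 and 85.6 ± 55.7 (adjusted p = 0.859) in the knock-out and wild-type labels.

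Of 17 polycomb genes that repress the Cdkn2a locus, Suz12 fell and 0 rose (median log2 difference -0.13). Suz12, a core subunit of the complex that methylates histone H3, stood at 423.6, 455.5 and 430.7 normalized counts in knock-out libraries and at 664.4, 619.8 and 645.5 in wild-type libraries. Both groups were tight and far apart (log2 difference -0.56, SE 0.11, adjusted p = 0.0345). It did not pass without a variance trend (adjusted p = 0.0834), nor when any 1 library except wild-type library 1 was left out (0.0878 to 0.198). Among 10 tested genes linked to senescence, Mmp3 and Timp1 rose and 0 fell (median log2 difference 0.12), while 5 had an unadjusted p under 0.05, 4 higher and 1 lower. Mmp3, a stromelysin of the senescent secretome and of fibroblasts in general, had 98.1 ± 11.4 and 7.8 ± 3.7 normalized counts (log2 difference 3.57, adjusted p = 0.0018), and Timp1, an inhibitor of metalloproteinases, 179.4 ± 5.1 and 100.6 ± 4.0 (log2 difference 0.83, adjusted p = 0.0168), in the knock-out and wild-type labels. Timp1 likewise did not pass in the same 5 cases (adjusted p from 0.0616 to 0.12), while Mmp3 passed in every alternative with a test. Named after their values were seen, Igfbp7 was a further gene that DESeq2 called (log2 difference in limma 1.84, limma adjusted p = 0.143, DESeq2 adjusted p = 0.0334), and Lmnb1, a lamin gene whose RNA is known to be lower in senescent cells, had 914.8 ± 79.0 normalized counts in the knock-out label and 660.9 ± 99.7 in the wild-type label (SD, n = 3 each; limma adjusted p = 0.126).

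**Figure D4:**
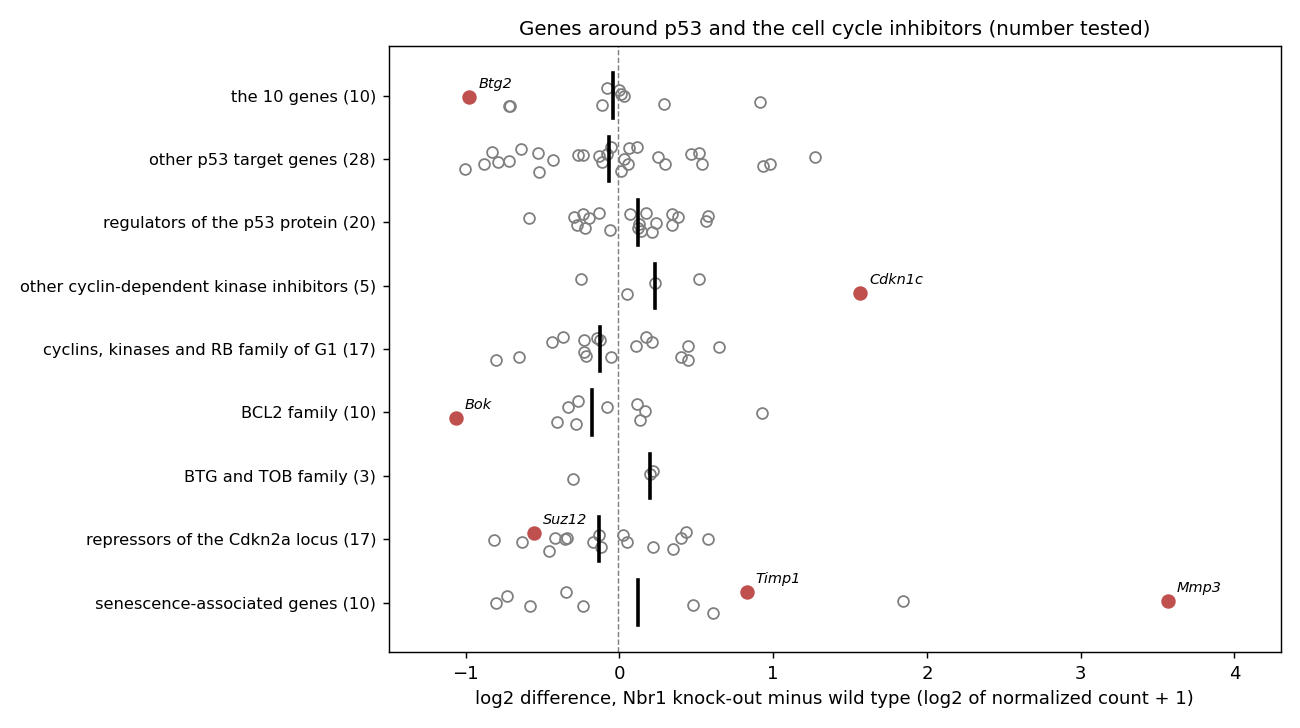
Log2 difference between Nbr1 knock-out and wild-type libraries (horizontal axis) for the tested genes of each list, with the number tested in brackets. Filled points are genes past the threshold, named, open points the others, black bars the list medians, and the dashed line the median of all tested genes at -0.01. At most 2 genes pass in any list, and some pass in 5 of the 9 lists, beside 6.92% of all tested genes. The list medians lie between -0.18 and 0.23.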

How the data were processed

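Messenger RNA of 6 libraries was measured; per the labels' protocols, RNA was taken with Trizol and a column kit, QuantSeq 3' libraries (Lexogen, forward version, optional molecular identifiers) were made from 200 ng, and 75 nucleotides were read from one end on an Illumina NextSeq. The submitters' processing notes name DESeq2 and GRCm39; the sources used here do not give the aligner, annotation, strand setting or use of the identifiers. The deposited values are a normalized count signal, made by the authors by scaling each library's counts. Divided by what 1 read is worth, 100% of values came out whole (tolerance 0.01) in each library, so reads were recovered, 1508518 to 2383879 per library; count tests on them gave 766 genes with edgeR and 951 with DESeq2, beside 729 with limma. Every gene had at least 9 reads in all.

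Genes reaching 10 normalized counts in 3 or more libraries (10540 of 13341) were tested two-sided with limma 3.58.1 in R 4.3.3 (variance trend, log2 of value + 1, group only, Benjamini-Hochberg, threshold 0.05). Log2 differences are on that scale, which understates changes of low genes; ratios are of mean normalized counts. The test was checked on simulated data. Alternatives were pseudocounts of 0.5 and 5, no filter, a minimum mean of 50, TMM factors, quantile normalization, edgeR 4.0.16, DESeq2 1.42.0, no trend, a replicate block, a term for the library sets (average-linkage clustering of deviations from group means) and each library left out; differences within each set were added after seeing the data. The genes and lists were chosen with earlier results of these data known. Named are the 10 genes, Nbr1, up to 6 called genes of each list, otherwise the 2 of smallest p, and the 3 nearest in pattern. Sqstm1, further genes called in alternatives but not in the main test, and cell type markers were added after their values were seen. Gene overlaps come from GENCODE M21 (GRCm38), so no gene coordinates are given beside the RefSeq windows.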

Additional observations from a re-analysis of the deposited data

How the results depend on the processing

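Of the 10 genes, 1 passed in the main test. The count was 0 with quantile normalization (Btg2 adjusted p = 0.0512), without a trend (0.053) and with the replicate block (0.0718), 2 with a term for the library sets (Btg2 and Cdkn1a), and 0 to 3 with each library left out, the 3 without wild-type library 1 being Btg2, Cdkn1a and Cdkn2a. Of the other p53 targets 0 passed, 1 with DESeq2, 6 with the set term, and 0 to 5 with each library left out. Calls over all genes numbered 729, and 476 with the block, which also ended the calls of Cdkn1c, Bok, Suz12 and Timp1. They numbered 2791 with the set term and 200 to 2228 with each library left out, the highest without wild-type library 1. The library sets were drawn from these data, so calls made with the set term are a description only. Same-numbered libraries deviated with correlations of 0.446, 0.7 and -0.624, and 2 of 6 libraries were closest to their own number. The labels state no pairing. These deviations also carry the library sets, so they cannot decide whether the numbers pair the samples. With each library left out, log2 differences ran from -0.21 to 0.077 for Mdm2, -0.076 to 0.11 for Ccng1, -0.19 to 0.43 for Zmat3, -0.51 to 0.29 for Cdkn2a, -0.62 to 0.19 for Cdkn2b, -0.15 to 0.41 for Btg1 and -1.10 to 0.12 for Tob1. With the set term they were -0.061 for Ccng1, -0.24 for Zmat3, 0.31 for Cdkn2a, 0.23 for Cdkn2b and 0.32 for Tob1. Zmat3 was at -0.048 with edgeR and -0.076 with DESeq2, and Cdkn2a at 0.003 with TMM and 0.034 with quantile normalization. The cause of these moves was not tested. The sign, not the size, held in every alternative with a test for Trp53, Cdkn1a, Bax, Btg2 and Phlda3: leaving out 1 library gave -1.20 (without wild-type 1) to -0.38 (without knock-out 3) for Trp53 and 0.03 (without wild-type 3) to 0.59 (without wild-type 1) for Phlda3. A minimum mean of 50 left Bax, Phlda3 and Cdkn1c untested. With 18 to 65 reads of Bax per library, its error is set in part by counting.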
